A study of Mus musculus with 2 samples.

Results

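The CXC chemokines described here are 8 of the 32285 genes in the expression matrix, chosen by symbol from its feature table: Cxcl1, Cxcl2, Cxcl3, Cxcl9, Cxcl10, Cxcl14, Cxcl16 and Pf4. All 8 had UMIs (unique molecular identifiers, each standing for 1 counted RNA molecule), between 763 for Cxcl14 and 132938 for Cxcl2 over the kept cells. The cells came from the pancreatic islets of 6 to 8 male C57BL/6J mice of wild-type (WT) genotype, pooled, dissociated and sorted as live (DAPI−), Epcam− and CD45+. The design text calls the mice myeloid WT, and neither a treatment nor an age is named for them. The sorted cells were stained with TotalSeq-B antibodies, which carry DNA barcodes, against CD9 and CD206, and an mRNA library and an antibody (ADT) library were read from the same cells, with all 2237 barcodes present in both. Because the animals were pooled into 1 sample, no difference below has a replicate check, no test was made, and every interval is a 95% interval that covers counting error only.

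CXC chemokines guide leukocytes through G protein-coupled receptors. CXCL1, CXCL2 and CXCL3 carry the glutamate-leucine-arginine (ELR) motif ahead of their first cysteines and attract neutrophils through CXCR2, whereas CXCL9 and CXCL10 lack it, are induced by interferons and attract activated T cells and NK cells through CXCR3. CXCL16 is made as a membrane protein that binds CXCR6 and is shed by the proteases ADAM10 and ADAM17, PF4 (platelet factor 4) is best known from platelet granules, and CXCL14 is a chemokine of epithelia and other tissues whose signalling receptor is less well defined. In islets, resident macrophages are the main myeloid cell and a known source of chemokines.

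Of 2237 barcodes 2175 cells were kept, with a median of 19348 RNA UMIs (quartiles 13348 and 24739). Macrophages were taken as the 1792 cells in which the complement genes C1qa, C1qb and C1qc together reached 2000 CPM (counts of a gene scaled to a common total per cell or per group of cells), at a median of 6927 CPM and a median depth of 20200 UMIs. Just outside this limit lay 47 cells (1000 to 2000 CPM) and just inside it 221 cells (2000 to 4000 CPM), with Cxcl2 at 6301 and 6309 CPM, Cxcl10 at 1251 and 1523 CPM and Cxcl16 at 448 and 495 CPM. Of the gated cells, 1759 lay in clusters whose median C1q reached the limit and 33 in other clusters, 18 of them dendritic cell-like. Below the limit were 109 T and NK cell-like, 51 dendritic cell-like, 29 B cell-like and 17 monocyte-like cells, together 206 other immune cells with a median of 11080 UMIs, and despite the sort 42 endocrine-like and 23 endothelial-like cells. The remaining cells entered no comparison between classes, as 104 lay in macrophage clusters under the limit (median 1697 UMIs, Cxcl2 at 4547 CPM) and 8 in an unnamed cluster. The dendritic cell-like cluster held 13 of 24 dendritic cell markers but also 7 of 12 macrophage markers, the endothelial-like cluster likewise 7 of 12, and the monocyte-like cluster 4 of 8 neutrophil markers.

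The sequences ahead of the gene starts are printed so that the members can be compared within and between the functional groups. RefSeq promoter windows (build GRCm38.p6) were given for 7 of the 8 members, all but Cxcl16, and the stretches before the start of the 3 ELR genes and of the interferon-induced pair are shown 5′ to 3′ on the strand of the gene. They lie at chr5:90891095-90891244 (Cxcl1, plus strand), chr5:90903749-90903898 (Cxcl2, plus), chr5:90785951-90786100 (Cxcl3, plus), chr5:92328080-92328329 (Cxcl9, minus) and chr5:92348890-92349139 (Cxcl10, minus), each ending at the base before the start. Capitals mark matches on either strand to 2 spellings of the element bound by NF-kB, a longer one (GGG, any 3 bases, TTCC) and a shorter one (GGGNNTTCC), and to a spelling of the interferon-stimulated response element (GAAA, any 2 bases, GAAA).
Cxcl1: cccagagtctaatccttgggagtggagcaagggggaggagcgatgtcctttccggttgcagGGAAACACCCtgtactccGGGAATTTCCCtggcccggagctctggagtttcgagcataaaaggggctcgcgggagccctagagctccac
Cxcl2: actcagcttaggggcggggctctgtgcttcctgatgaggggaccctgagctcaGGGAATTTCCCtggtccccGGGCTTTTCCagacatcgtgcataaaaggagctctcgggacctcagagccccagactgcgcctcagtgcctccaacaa
Cxcl3: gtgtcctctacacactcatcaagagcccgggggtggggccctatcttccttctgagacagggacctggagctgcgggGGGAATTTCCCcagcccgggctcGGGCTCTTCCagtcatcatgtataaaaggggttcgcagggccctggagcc
Cxcl9: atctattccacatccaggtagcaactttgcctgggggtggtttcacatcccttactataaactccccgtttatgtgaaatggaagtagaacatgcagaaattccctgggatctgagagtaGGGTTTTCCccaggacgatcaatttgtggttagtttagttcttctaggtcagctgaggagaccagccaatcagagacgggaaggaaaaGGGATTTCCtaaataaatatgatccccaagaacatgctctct
Cxcl10: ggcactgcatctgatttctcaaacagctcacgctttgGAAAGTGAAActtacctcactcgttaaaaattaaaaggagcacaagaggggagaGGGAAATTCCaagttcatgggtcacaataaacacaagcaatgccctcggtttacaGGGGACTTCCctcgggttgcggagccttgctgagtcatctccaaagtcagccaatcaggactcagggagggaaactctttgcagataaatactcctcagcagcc
The 3 ELR genes shared the 11 letters GGGAATTTCCC, that match the longer NF-kB spelling on both strands in overlapping positions, from 71 to 61 bases before the start of Cxcl1, 97 to 87 before Cxcl2 and 73 to 63 before Cxcl3. Each held 1 further match to it (GGAAACACCC, its reverse complement, in Cxcl1, GGGCTTTTCC in Cxcl2 and GGGCTCTTCC in Cxcl3), and each a TATA-like ATAAAA downstream of the shared element. Over the whole pairwise alignments of the 150 bases, shared stretches included, 52.0 to 56.0% of the columns were identical. Cxcl10 held GGGAAATTCC and GGGGACTTCC, the second overlapping the 9-letter match GGGACTTCC, together with the AP-1 motif TGAGTCA and GAAAGTGAAA, the interferon-stimulated response element spelling, 213 to 204 bases before its start. In the window of Cxcl9 were 2 matches to the shorter spelling (GGGTTTTCC and GGGATTTCC) and none to the longer one or to the response element. In the unprinted windows, that of Cxcl14 held GAAACAGAAA and no NF-kB spelling, and that of Pf4 none of these 3 motifs. Of 32851 RefSeq promoters, searched over the 250 bases before the start on both strands, 4.65% held the longer NF-kB spelling, 4.98% the shorter, 2.98% the response element, 6.75% TGANTCA and 17.0% ATAAAA. The STAT motif TTCNNNGAA was in 7.02% of them in none of the 5 windows printed and once in that of Cxcl14 (TTCTGAGAA). A match describes letters only, and no binding was measured here.

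The neutrophil-attracting members were found mainly in macrophages, as were most of the others. Macrophages made up 82.4% of the kept cells and held 85.3% of their RNA UMIs. They held 96.1%, 96.9% and 98.0% of the Cxcl1, Cxcl2 and Cxcl3 UMIs, and 99.2% of the Pf4, 94.3% of the Cxcl10, 93.9% of the Cxcl16, 88.7% of the Cxcl14 and 69.0% of the Cxcl9 UMIs. Cxcl2 (ENSMUSG00000058427, chr5:90903899-90905938) stood at 3535 CPM (3516 to 3555) and had a UMI in 82.3% of macrophages (1475 of 1792), with a median of 13 UMIs per cell, quartiles of 1 and 81 and a highest cell of 1056. Of the UMIs counted for the 3 ELR genes together, 93.1% were of Cxcl2. Cxcl1 (ENSMUSG00000029380, chr5:90891245-90893121) stood at 130 CPM (126 to 134) with a UMI in 17.7% of macrophages, and Cxcl3 (ENSMUSG00000029379, chr5:90786101-90788093) at 133 CPM (129 to 136) with a UMI in 21.8%. For both the median macrophage held 0 UMIs, so their levels came from a minority of cells. CPM values are given per gene and are not scaled to gene length, so no order of level between genes is drawn from them.

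Of the interferon-induced pair, Cxcl10 had at least 1 UMI in most macrophages and Cxcl9 in few. Cxcl10 (ENSMUSG00000034855, chr5:92346638-92348889) stood at 1637 CPM (1624 to 1650) in macrophages, had a UMI in 63.7% of them, and ran from a median of 1 UMI to 23 at the upper quartile and 631 in the highest cell. Cxcl9 (ENSMUSG00000029417, chr5:92321331-92328079) stood at 34.2 CPM (32.4 to 36.2) and had a UMI in only 84 of 1792 macrophages (4.69%). A single gated cell held 329 of its 1248 UMIs (26.4%), and that cell lay in the dendritic cell-like cluster, with a C1q level of 3257 CPM. Over the 1759 gated cells in macrophage clusters Cxcl9 stood at 25.6 CPM (23.9 to 27.3), and the values of the other 7 members there were between 18.8 CPM for Cxcl14 and 3632 CPM for Cxcl2.

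Cxcl16 was found in nearly every macrophage, and Cxcl14 and Pf4 in a minority at low counts. Cxcl16 (ENSMUSG00000018920, chr11:70454389-70459984), the membrane-bound member, stood at 622 CPM (614 to 631) and had a UMI in 95.6% of macrophages, with a median of 11 UMIs, quartiles of 6 and 17 and a highest cell of 76. Its sheddase genes were detected in the same cells, Adam10 at 130 CPM (78.8% of macrophages with a UMI) and Adam17 at 275 CPM (90.5%). Pf4 (ENSMUSG00000029373, chr5:90772435-90773383) stood at 25.7 CPM (24.1 to 27.4) with a UMI in 23.3% of macrophages, and Cxcl14 (ENSMUSG00000021508, chr13:56288643-56296811) at 18.6 CPM (17.2 to 20.03) with a UMI in 18.1%. Cells with a Pf4 UMI held 2.24 UMIs of it on average, and cells with a Cxcl14 UMI 2.09, which is near the level of single counts. Of 8 platelet or megakaryocyte markers, 2 had at least 20 UMIs over all 2175 cells: Ppbp, another platelet chemokine, with 109 and Clec1b with 62, against 946 for Pf4. Gp1ba and Gp1bb had 0 UMIs, Gp9 1, Gp6 4, Treml1 14 and Itga2b 17. Of the Ppbp UMIs, 106 lay in macrophages. The 2 markers with enough UMIs to compare stood at 4.47 CPM summed in macrophages and 0.664 CPM in other immune cells. Ppbp had 0 UMIs in the other immune cells and passed the filter through its macrophage UMIs alone. No direction is read from these counts. The source of the Pf4 UMIs was not tested.

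The members also differed in how few macrophages held their transcripts, a share that at low totals is also set by counting. The 18 macrophages (1%) with the most UMIs of a gene held 79.2% of Cxcl9, 43.1% of Cxcl1, 34.7% of Cxcl3, 26.3% of Pf4, 18.6% of Cxcl14, 12.2% of Cxcl10, 11.04% of Cxcl2 and 4.10% of Cxcl16. Read the other way, 50% of the UMIs lay in 5 cells for Cxcl9, 25 for Cxcl1, 34 for Cxcl3, 118 for Cxcl10, 150 for Cxcl2 and 477 for Cxcl16. Cxcl1 and Cxcl3 were thus concentrated in few cells and Cxcl2 was not, although all 3 are ELR genes.

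**Figure D1:**
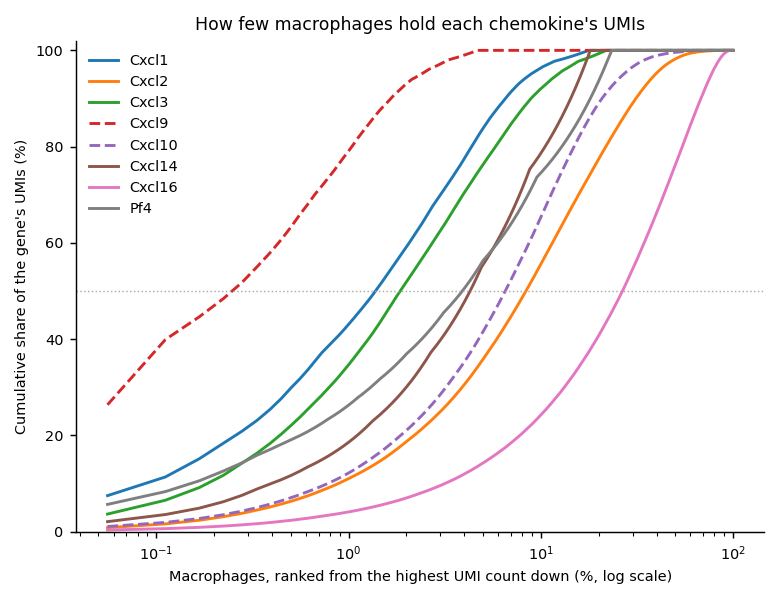
Cumulative share of each gene's UMIs (vertical axis, %) over the 1792 macrophages ranked from the highest UMI count down (horizontal axis, % of macrophages, log scale), with interferon-induced members dashed and the dotted line at 50%. The curve of Cxcl9 reaches 50% within 5 cells, those of Cxcl1 and Cxcl3 within 25 and 34, and that of Cxcl16 only after 477.

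Against the 206 other immune cells, 7 of the 8 members were at least 1.5-fold higher in macrophages and 1 was lower. Of all 13401 genes with at least 20 UMIs in the 2 sums together, 17.7% were as much higher and 45.4% as much lower, 63.1% either way, around a median log2 ratio of −0.48. Over the members the median log2 ratio was 3.77, with Cxcl14 and Pf4, which passed the filter through their macrophage UMIs alone, at their lower bounds. Endocrine hormone markers were also higher in macrophages in 7 of 8 cases, at summed levels of 2958 against 934 CPM, and their part in these ratios was not tested. Cxcl2 stood at 3535 against 129 CPM, 27.4-fold (24.8 to 30.3), and 48.3-fold without the monocyte-like cells. Cxcl1 had 1 UMI in the other immune cells against 4738 in macrophages, a ratio of 391.7 (70.3 to 15475); it was 704 as a mean over cells and at least 69.5-fold without the dendritic cell-like cells, which held that UMI. Cxcl3 was 9.99-fold higher (7.32 to 14.0), but 35 of its 40 UMIs in the other cells lay in 1 dendritic cell-like cell, and without it the ratio was 79.3 (33.9 to 244). Cxcl14 and Pf4 had 0 UMIs in the other immune cells (0 of 206, which allows a share of up to 1.46% with a UMI) and were at least 18.7-fold and at least 25.8-fold higher, computed against 3 counts over the group, or at least 9.93-fold and at least 13.8-fold without the dendritic cell-like cells, whose depth lowers that floor.

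Cxcl10 and Cxcl16 had smaller ratios, and some other classes also held them. Cxcl10 stood at 1637 against 667 CPM, 2.45-fold (2.35 to 2.57), and 4.15-fold without the dendritic cell-like cells, in which it stood at 978 CPM. Cxcl16 stood at 638 CPM (597 to 682) in dendritic cell-like cells, with a UMI in 92.2%, against 622 CPM in macrophages, a ratio of macrophages to dendritic cell-like cells of 0.975 (0.912 to 1.04). Without the dendritic cell-like cells it was 21.7-fold higher (16.3 to 29.6) than in the other immune cells, against 1.98-fold (1.86 to 2.12) with them, or 3.46-fold as a mean over cells. It stood at 142 CPM in monocyte-like, 12.7 CPM in B cell-like and 5.80 CPM in T and NK cell-like cells.

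Cxcl9 was higher in dendritic cell-like cells than in macrophages. It stood at 388 CPM (356 to 422) in dendritic cell-like cells, where 18 of 51 cells (35.3%) had a UMI, against 34.2 CPM in macrophages, a ratio of 0.0883 (0.0798 to 0.0978). All 547 of its UMIs in the other immune cells lay in this class, and 189 of them in 1 cell. Against the 206 cells together the macrophage ratio was 0.189 (0.170 to 0.209), or 0.103 with a C1q limit of 4000 CPM, and without the dendritic cell-like cells it turned to at least 18.3-fold higher. Of the 8 kept cells with the most Cxcl9 UMIs, 4 lay in the dendritic cell-like cluster, 1 of these inside the macrophage gate, and 4 in the macrophage cluster led by interferon-induced genes.

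T and NK cell-like cells, which carry the receptor of CXCL9 and CXCL10, also held Cxcl10. It stood there at 533 CPM (490 to 580), 32.6% of the macrophage level, with a UMI in 31 of 109 cells (28.4%). Macrophage genes stood far lower in the same cells, C1qa at 0.901% and Apoe at 1.26% of their macrophage levels. Of its UMIs there, 91.1% (503 of 552) lay in 9 cells with at least 10 each. C1q stood at 52.0 CPM in the T and NK cell-like cells with a Cxcl10 UMI and at 70.1 CPM in those without. The source of these UMIs was not tested. Cxcl1, Cxcl3, Cxcl9, Cxcl14 and Pf4 had 0 UMIs in these 109 cells, which allows a share of up to 2.75% with a UMI.

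Depth differed between classes, so shares of cells were also taken after thinning every cell to 5000 UMIs, which left out 123 macrophages and 10 T and NK cell-like cells. At equal depth Cxcl2 had a UMI in 70.2% of macrophages and 10.1% of T and NK cell-like cells (82.3% and 14.7% unthinned, at median depths of 20200 and 8954 UMIs). Cxcl10 had a UMI in 47.7% and 24.2%, Cxcl16 in 91.6% and 5.05%, and Cxcl1 in 11.4% and 0%. The T and NK cell-like shares of Cxcl2 and Cxcl16 went with levels of 0.547% and 0.931% of those in macrophages, against 0.901% for C1qa and 1.26% for Apoe. The source of the Cxcl2 and Cxcl16 UMIs was not tested, and no expression in these cells is read from them.

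In the 17 monocyte-like cells, Cxcl2 stood at 738 CPM (636 to 852) with a UMI in 12 cells, and no Cxcl1, Cxcl9, Cxcl14 or Pf4 UMI was counted (0 of 17 cells allows a share of up to 17.6%). Endothelial-like cells held the highest level of Cxcl14, at 224 CPM (178 to 278), but all 82 UMIs came from 2 of 23 cells. Their Cxcl10 stood at 1473 CPM, of which 325 of 540 UMIs lay in 1 cell. Endocrine-like cells, the hormone cells of the islet, held Cxcl2 at 44.2 CPM and Cxcl10 at 24.8 CPM, 1.25% and 1.51% of the macrophage levels. In the same cells C1qa stood at 2.55% and Apoe at 2.33% of theirs, and the source of these UMIs was not tested.

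**Figure D2:**
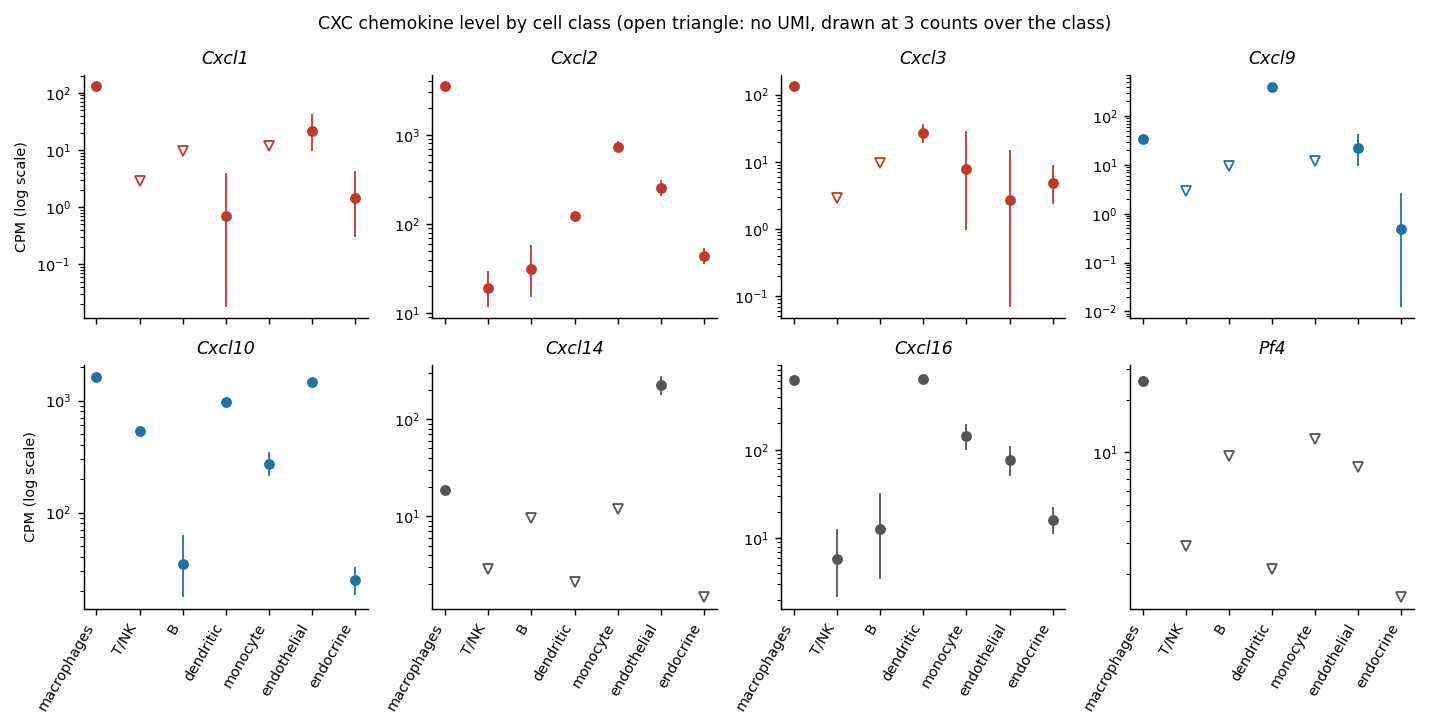
Level of each member by cell class in CPM (log scale) with 95% Poisson intervals, where an open triangle marks a class with no UMI, drawn at the level of 3 counts over the class. The ELR genes (red) are highest in macrophages, Cxcl9 is highest in dendritic cell-like cells (388 CPM), Cxcl16 is alike in both, and Cxcl14 is highest in endothelial-like cells through 2 cells.

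The receptors of these ligands stood at lower levels per total RNA in macrophages than in the other immune cells. Of 8 receptor genes, 5 had at least 20 UMIs over the sums of macrophages and other immune cells together, and all 5 (Cxcr2, Cxcr3, Cxcr4, Cxcr5 and Cxcr6) were at least 1.5-fold lower in macrophages, against 45.4% of all genes. Cxcr3, the receptor of CXCL9 and CXCL10, stood at 114 CPM (94.4 to 137) in T and NK cell-like cells and 2.96 CPM in macrophages. Cxcr6, the receptor of CXCL16, stood at 167 CPM (143 to 194) and 0.274 CPM. It was highest in the 8 cells of the unnamed cluster (led by Il5, Calca and Gata3), which entered no comparison. There it stood at 1420 CPM (1179 to 1695) with a UMI in all 8 cells, 122 of its 305 UMIs over all kept cells. Cxcr2, the receptor of the ELR chemokines, had 31 UMIs over all kept cells, 17 of them in 14 macrophages (0.466 CPM) and 10 in 2 monocyte-like cells (39.5 CPM), and Cxcr1 had 1. Transcripts of the ELR receptor were thus few among the sorted cells at this depth.

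Cxcr4, which binds CXCL12, was the receptor most detected in macrophages, at 101 CPM with a UMI in 58.6%, against 193 CPM in other immune cells. Its ligand Cxcl12 had 58 UMIs, 46 of them in endothelial-like cells (126 CPM), which also held the scavenging receptor Ackr3 at 363 CPM. Cxcr5 stood at 197 CPM in B cell-like cells, while its ligand Cxcl13 had 0 UMIs over all kept cells. Of the other CXC ligands, Cxcl5 had 15 UMIs, Cxcl17 7 and Cxcl15 0.

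Among macrophages, the members split along the clusters. Clusters were built without the members and without the other genes of the pathway lists, and each is named by its leading genes. Cxcl10 stood at 6134 CPM (6076 to 6193) in cluster 0, led by Ifit3, Ifit2 and Cmpk2, and between 232 and 1635.5 CPM in the other 9 macrophage clusters. Cluster 0 made up 16.9% of macrophages and held 70.6% of their Cxcl10 UMIs and 59.7% of their Cxcl9 UMIs. Cxcl9 stood there at 108 CPM (101 to 117) and at 13.9 CPM or less in the other 9.

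Cxcl2 was highest in 3 other clusters: cluster 7 (8592 CPM, led by Folr2, Racgap1, Cxcl2 itself and Gdf15), cluster 8 (7913 CPM, led by Tmem267, Ptgs2 and Il10) and cluster 2 (7741 CPM, led by the heat-shock genes Hspa1b and Hspa1a). It was lowest in cluster 4 (695 CPM, led by Gpnmb and Pltp) and cluster 1 (705 CPM, led by Myo1f, Tgfbr1 and Asb2), a 12.4-fold range. Cxcl1 and Cxcl3 shared the high levels of clusters 7 and 8 (239 and 298 CPM for Cxcl1, 274 and 269 CPM for Cxcl3) but not that of cluster 2, where they stood at 133 and 68.9 CPM. Both were also high in cluster 5 (269 and 295 CPM, led by Il12b, H2-M2 and Cd207), where Cxcl2 stood at 2655 CPM. A single cell held 354 of the 1007 Cxcl1 UMIs of cluster 5.

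Cxcl16 ran the other way to Cxcl2, highest in cluster 1 (866 CPM, 840 to 893) and lowest in cluster 2 (329 CPM, 313 to 345), a 2.63-fold range. Cxcl14 ranged from 13.8 to 37.2 CPM over the 10 clusters, and the interval of the highest, cluster 6 (23.3 to 56.3 CPM), overlapped those of clusters 0, 1, 3, 7 and 14 but not of 2, 4, 5 and 8. Cluster 6 was a low-depth cluster whose gated cells had a median of 3691 UMIs. Pf4 ranged from 13.5 CPM in cluster 8 to 96.0 CPM in cluster 14, where 1 cell held 78.1% of its 32 UMIs.

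**Figure D3:**
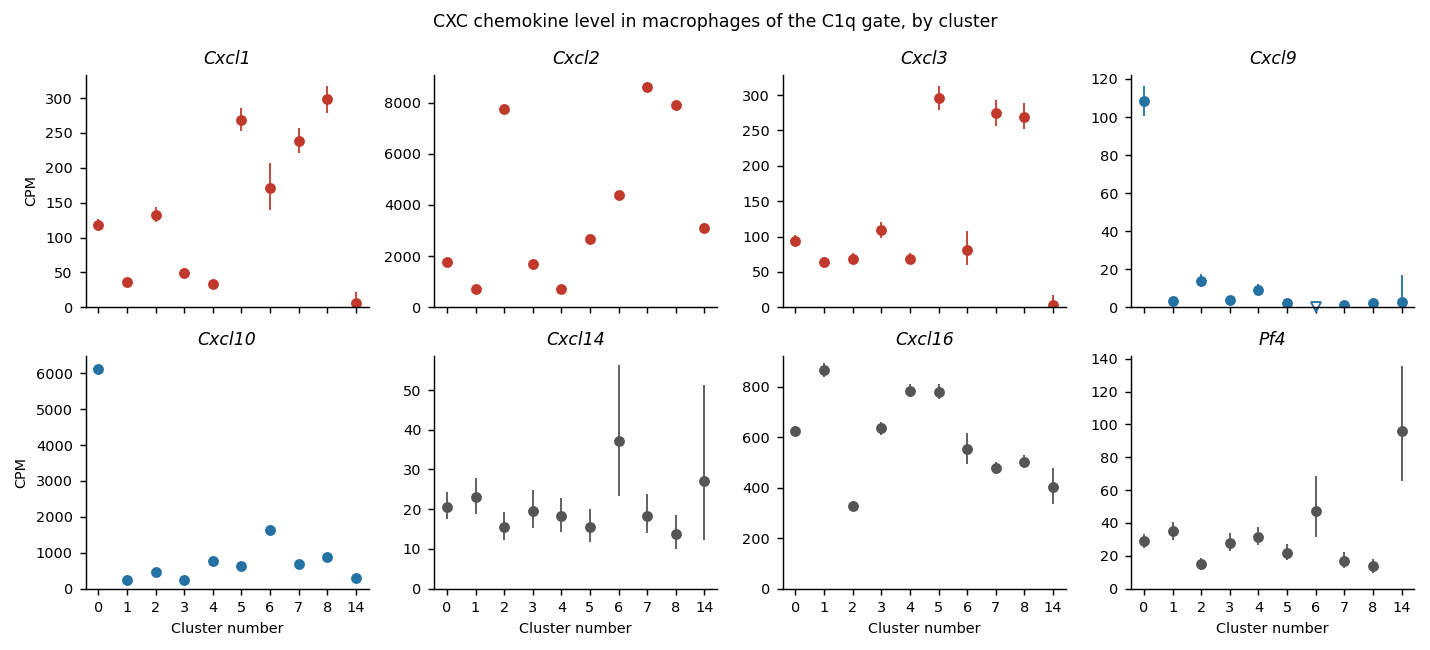
Level of each member (CPM, linear axis from 0, 95% Poisson intervals) in the gated macrophages of the 10 macrophage clusters, by cluster number; an open triangle marks 0 UMIs. Cxcl9 and Cxcl10 peak in cluster 0, Cxcl2 in clusters 2, 7 and 8, Cxcl1 and Cxcl3 in clusters 5, 7 and 8, and Cxcl16 in cluster 1.

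Co-detection in the same cell was read in 1579 macrophages thinned to 10000 UMIs, with 213 shallower cells left out. At this depth a UMI was found in 79.0% of cells for Cxcl2, 18.4% for Cxcl3, 14.6% for Cxcl1, 56.7% for Cxcl10, 4.24% for Cxcl9, 98.4% for Cxcl16, 15.5% for Pf4 and 11.6% for Cxcl14. At least 10 UMIs were found in 49.0% of cells for Cxcl2 and 29.1% for Cxcl10. Each pair is described by the share of cells with both genes over the product of the 2 single shares, which is 1 where detection of one gene does not go with that of the other. The ratio cannot exceed 1 over the larger single share, so pairs that hold the widely detected Cxcl2 can lie only little above 1. Sizes of ratios are therefore not compared between pairs. Their intervals cover the share with both genes and not the error of the single shares. Within the ELR group all 3 pairs lay above 1. Cxcl1 and Cxcl3 were found together in 4.50% of cells against a product of 2.68% (1.68-fold, 1.32 to 2.11), and Cxcl1 and Cxcl2 (1.07 to 1.37) as well as Cxcl2 and Cxcl3 (1.08 to 1.34) were at 1.21-fold. Of cells with Cxcl1, 95.7% also held Cxcl2, against 76.1% of cells without it. All 3 ELR genes were found in 71 cells (4.50%, against a product of the 3 shares of 2.11%), 2 in 354, 1 in 846 and none in 308.

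The interferon-induced pair also went together: Cxcl9 and Cxcl10 were found in the same cell in 3.29% of cells against a product of 2.41% (1.37-fold, 1.03 to 1.79), and 77.6% of cells with Cxcl9 held Cxcl10. At least 10 UMIs of Cxcl10 were found in 71.6% of the cells with Cxcl9 and in 27.2% of those without. Across the groups, the interval of the ratio included 1 for each pair of single genes, which does not show that they are unrelated. Cxcl10 was found in 63.9% of cells with Cxcl1 and 55.4% of those without. For Cxcl2 these shares were 58.3% and 50.6%, and for Cxcl3 61.0% and 55.7%, each with overlapping intervals. Cxcl9 was found in 4.35% and 4.23% of cells with and without Cxcl1, 3.77% and 6.02% for Cxcl2, and 4.14% and 4.27% for Cxcl3. Cells with Cxcl1 or Cxcl3 and with Cxcl9 or Cxcl10 made up 18.0% against a product of 16.4% (1.10-fold, 0.984 to 1.22). Read as conditional shares, 63.3% (58.6 to 67.7%) of the cells with Cxcl1 or Cxcl3 held Cxcl9 or Cxcl10, against 55.4% (52.4 to 58.3%) of the cells without, intervals that do not overlap. Cells with at least 10 UMIs of both Cxcl2 and Cxcl10 made up 13.6% against 14.3% (0.949-fold, 0.833 to 1.07). The neutrophil-attracting and the interferon-induced members were thus not restricted to separate macrophages. In unthinned cells, where depth differs, the ratio for Cxcl1 or Cxcl3 with Cxcl9 or Cxcl10 was 1.13 (1.04 to 1.23).

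**Figure D4:**
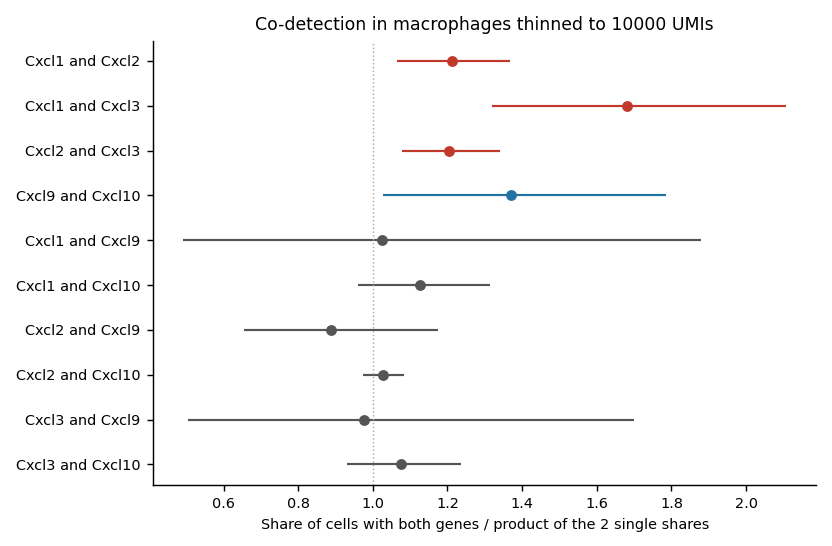
Share of macrophages with both genes over the product of the single shares (horizontal axis, 95% interval of the share with both), in 1579 cells thinned to 10000 UMIs, for pairs of ELR genes (red), the interferon-induced pair (blue) and pairs across the groups (grey). The 4 pairs within a group lie above the dotted line at 1, and the intervals of all 6 pairs across the groups include it.

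Levels per cell (log of 1 plus the UMIs of the same thinned cells) were also compared. Over these 1579 cells, which share 1 library and were set to 1 depth, Pearson's r was 0.35 for Cxcl1 and Cxcl2, 0.30 for Cxcl2 and Cxcl3, 0.19 for Cxcl1 and Cxcl3, 0.21 for Cxcl9 and Cxcl10 and 0.01 for Cxcl2 and Cxcl10. Spearman's rho for these pairs was 0.32, 0.29, 0.15, 0.18 and 0.05. Cxcl2 and Cxcl16 had the most negative values of the 28 pairs, r = −0.36 and rho = −0.38, and Pearson's r of every pair that held Cxcl14 or Pf4 lay near 0 (between −0.03 and 0.07). These are descriptions of sparse counts, and nothing is read from the small ones.

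The genes most like each member were taken from 8371 genes found in at least 5% of the thinned macrophages, by Pearson's r over the same 1579 cells. For Cxcl10 these were the interferon-stimulated genes Rsad2 (0.77), Ifit1 (0.75), Ifit2 (0.74), Isg15 (0.71) and Ifih1 (0.69). For Cxcl9 they were Tgtp2 (0.31), Irf7 (0.31), Ifitm3 (0.30), Ifi47 (0.29) and Ifi205 (0.29). For Cxcl2 they were the heme oxygenase gene Hmox1 (0.58), the inflammasome gene Nlrp3 (0.57), Hspa8 (0.55), Ifrd1 (0.54) and Cdkn1a (0.54). Cxcl1 and Cxcl3 each had Cxcl2 as the nearest gene, followed by Il1a (0.33), Tnf (0.28), Nlrp3 (0.25) and Ccl3 (0.23) for Cxcl1 and by Prdx1 (0.25), Txnrd1 (0.24), Srxn1 (0.23) and Sqstm1 (0.23) for Cxcl3. For Cxcl16 the nearest genes were Marcks (0.46), Tgfbi (0.39), Tgfbr1 (0.38), Rassf4 (0.36) and Zeb2 (0.36). Only Fcrls (0.22) reached 0.2 for Pf4, and no gene did for Cxcl14.

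Macrophages with and without a UMI of Cxcl9 or Cxcl10 (910 and 669 thinned cells) were compared over gene lists. Of 11299 genes, 16.1% were at least 1.5-fold apart, 6.42% higher and 9.66% lower, around a median log2 of −0.14. Interferon-stimulated genes were higher in 18 of 19 cases (median log2 2.39), with Cmpk2 at 149 against 6.58 CPM (22.7-fold), Ifit1 at 467 against 22.3 CPM (21.0-fold), Rsad2, an antiviral enzyme, at 1801 against 87.3 CPM (20.6-fold) and Ifit2 at 847 against 52.8 CPM (16.1-fold). Of 18 NF-kB and inflammatory genes 8 were higher and none lower, among them the chemokine Ccl4 (5530 against 888 CPM, 6.23-fold) and the cytokine Il6 (46.0 against 6.73 CPM, 6.85-fold). No gene of the immediate-early and heat-shock list (18) or of the NRF2 target list (10) was 1.5-fold apart in either direction. Cycling markers were also higher in 4 of 6 cases (89.9 against 51.3 CPM summed) and endothelial markers lower in 3 of 4 (11.4 against 17.5 CPM), and their part in the split was not tested. Of the 6 members that did not define the split, Cxcl1 was higher in summed UMIs (160 against 81.3 CPM, 1.96-fold, 1.78 to 2.17). Cxcl2 (1.40), Pf4 (1.31), Cxcl3 (1.12), Cxcl14 (1.11) and Cxcl16 (0.950) were under 1.5-fold apart. Cxcl1 sums rest on few cells, as 18 of all 1792 macrophages held 43.1% of its UMIs. By detection, 64.8% (58.2 to 70.9%) of thinned cells with Cxcl1 held Cxcl9 or Cxcl10, against 56.4% (53.7 to 59.1%) of those without. These intervals overlap. The Cxcl1 ratio was not taken without its richest cells.

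The macrophages richest and poorest in ELR transcripts were the top and bottom of 3 equal groups of the same 1579 cells, ranked by the sum of Cxcl1, Cxcl2 and Cxcl3 (527 cells with at least 30 UMIs and 526 with at most 2). As Cxcl2 gave 93.1% of the macrophage UMIs of these 3 genes, the ranking is mainly one by Cxcl2. This split moved many genes: 43.5% of 10581 were at least 1.5-fold apart, 9.74% higher and 33.7% lower, and the median log2 over all genes was −0.33, from which the list medians below are to be read. NF-kB and inflammatory genes were higher in 12 of 18 cases and lower in none (median log2 0.90), with the prostaglandin synthase gene Ptgs2 at 135 against 6.08 CPM (22.2-fold), Il1a 7.30-fold, Ccl3 4.45-fold and Nlrp3 4.30-fold higher. Of the list of immediate-early and heat-shock genes, a class that enzymatic release of cells from tissue can switch on, 16 of 18 were higher (median log2 1.09), Hspa1a at 2363 against 240 CPM (9.86-fold) and Egr1 6.03-fold. NRF2 target genes, which respond to oxidative stress, were higher in 9 of 10 (median log2 1.34), Hmox1 at 5397 against 1143 CPM (4.72-fold) and Gclc 3.56-fold. Their part in the ELR levels was not tested.

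Interferon-stimulated genes went the other way in this split, with 1 of 19 higher and 12 lower (median log2 −0.86). Cxcl10 stood at 1374 against 1773 CPM (ratio 0.775, 0.751 to 0.799) and Cxcl9 at 17.3 against 28.1 CPM (0.614, 0.467 to 0.802) in the ELR-rich cells. Cxcl16 stood at 478 against 780 CPM (0.613, 0.583 to 0.644), whereas Pf4 (1.21, 0.940 to 1.55) and Cxcl14 (0.940, 0.705 to 1.25) had intervals that include 1. The receptor gene Cxcr4 was also lower, at 61.5 against 163 CPM (0.377). The ELR-rich cells had a median of 448 CD9 antibody UMIs against 975 in the ELR-poor cells, and a mitochondrial share of 1.26% against 1.42%.

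Surface CD9, a tetraspanin, was read in all macrophages, and the cells were ranked by it within bins of equal RNA depth and divided into 10 deciles of 172 to 180 cells. The 3 highest and the 3 lowest deciles (540 cells each) had median CD9 counts of 3237.5 and 45 and median RNA depths of 20202 and 20200 UMIs. Of 11915 genes, 18.0% were at least 1.5-fold apart between them, 12.2% higher and 5.74% lower with CD9, around a median log2 of 0.10. Of the 8 members, 3 were as much lower (Cxcl1, Cxcl2 and Pf4) and 1 higher (Cxcl9).

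Cxcl2 went down along the deciles. From the lowest to the highest decile it stood at 4707, 4535, 4604, 3858, 4236, 4003, 3355, 2724, 1793 and 1918 CPM, so that the 6 lowest deciles lay above the 4 highest. The share of macrophages with a Cxcl2 UMI moved less, from 88.9% in the lowest to 75.6% in the highest decile. Between the ends it stood at 2138 against 4615 CPM, a ratio of 0.463 (0.456 to 0.470). Cxcl1 stood at 63.5 against 190 CPM (0.334, 0.307 to 0.364) with a UMI in 13.7% against 23.7% of cells. Cxcl3 stood at 132 against 198 CPM (0.668, 0.625 to 0.714), just short of 1.5-fold lower. It was past 1.5-fold under 8 of the 12 alternatives (0.590 without cluster 0 to 0.656 with a C1q limit of 1000 CPM) and short of it under 4 (0.700 by raw CD9 counts to 0.803 with a limit of 4000 CPM). Over the deciles Cxcl3 had no steady course, at 220 CPM in decile 2 and lowest, at 37.3 CPM, in decile 7.

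Pf4 was also lower with CD9, at 16.6 against 34.8 CPM (0.476, 0.397 to 0.568), with a UMI in 81 of 540 (12.1 to 18.3%) against 173 of 540 cells (28.1 to 36.2%). Cxcl16 stood at 669 against 581 CPM, 1.15-fold (1.11 to 1.19), from 534 CPM in the lowest to 731 CPM in the highest decile. The interval of Cxcl14 included 1 (ratio 1.01, 0.834 to 1.22). Cxcl9 was 6.01-fold higher (38.3 against 6.37 CPM), yet 169 of its 441 UMIs in the CD9-high cells lay in 1 cell, and without that cell the ratio was 3.72 (2.84 to 4.92), and 3.01 without cluster 0. The shares of cells with a Cxcl9 UMI were 6.11% (4.24 to 8.48%) and 3.89% (2.42 to 5.88%), intervals that overlap. Cxcl10 stood at 1655 against 1761 CPM (0.940, 0.921 to 0.959), between 1289 and 1893 CPM over the deciles with no steady course, and its direction turned under other settings, to 1.2008 (1.16 to 1.25) without cluster 0.

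**Figure D5:**
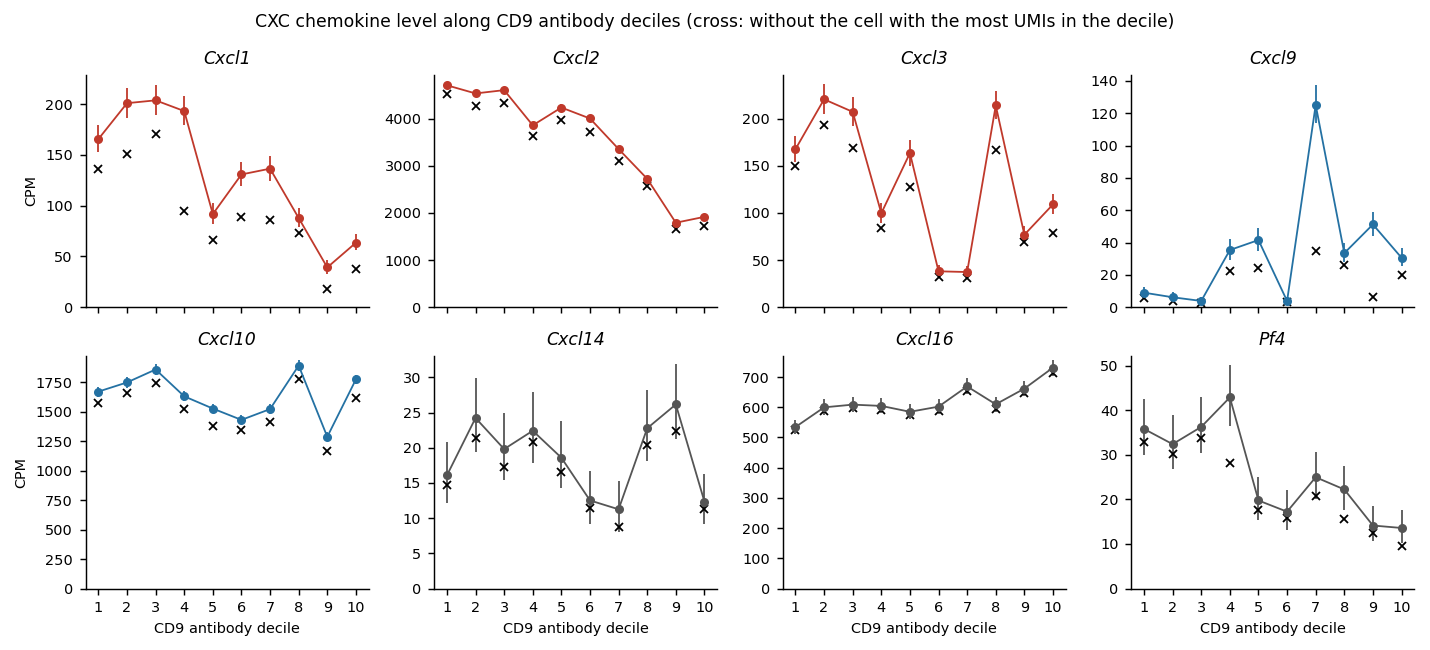
Level of each member (CPM, linear axis from 0, 95% Poisson intervals) in macrophages by decile of the CD9 antibody count, ranked within bins of equal RNA depth, with crosses at the level without the cell that holds the most UMIs. Cxcl2 goes from 4707 CPM in decile 1 to 1918 CPM in decile 10, Cxcl16 from 534 to 731 CPM, and the peak of Cxcl9 in decile 7 rests on 1 cell.

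CD9-high and CD9-low cells came from different clusters: the share of cluster 4 was 20.2% at the high and 0.926% at the low end, that of cluster 7 was 2.78% and 14.3%, that of cluster 3 was 7.96% and 15.9%, and that of cluster 0 was 14.6% and 21.3%. The ELR ratio was therefore also taken inside clusters, an alternative chosen after the data were seen. With CD9 ranked within each cluster the ratio of the 3 ELR genes together was 0.601 (0.593 to 0.609), against 0.467 (0.460 to 0.473) over all macrophages. In each of the 9 macrophage clusters with over 100 cells the upper and the lower 50% by CD9 were compared. The interval of the ratio of the summed ELR genes lay below 1 in 8 of them, with ratios from 0.420 (cluster 3) up, and included 1 in cluster 4 (1.06, 0.986 to 1.13). For Cxcl2 alone it also lay below 1 in 8, and Cxcl1 and Cxcl3 were not taken singly in these clusters. For Pf4 it lay below 1 in 5 of the 9 and above 1 in none. For Cxcl10 it lay below 1 in 4 and above 1 in 4.

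The lists that went with the summed ELR genes, mainly Cxcl2, in single cells were also read along CD9. Of all genes 12.2% were at least 1.5-fold higher and 5.74% lower with CD9, against 9.74% and 33.7% in the ELR split. That split ranks cells by the chemokines themselves, so the sizes of the 2 shifts are not compared. Of 18 NF-kB and inflammatory genes 5 were lower with CD9 and none higher (median log2 −0.21), of 18 immediate-early and heat-shock genes 3 were lower and 1 higher (−0.27), of 10 NRF2 target genes none was 1.5-fold apart (−0.22), and of 19 interferon-stimulated genes 1 was higher and 1 lower (−0.08). Cxcr4 was 1.70-fold higher (126 against 74.1 CPM). Markers of monocytes were also higher in CD9-high macrophages, in 5 of 5 measured genes, at summed levels of 50.4 against 13.3 CPM, endothelial markers in 5 of 5 (21.6 against 9.65 CPM), and endocrine hormone markers were lower in 4 and higher in 1 of 8 (2494 against 3793 CPM). Their part in the chemokine levels was not tested.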

How the data were processed

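The deposited values are counts of UMIs per gene or antibody tag and barcode, which the authors produced in Cell Ranger (8.0.1 in the file headers) on mm10, per the submitters' processing notes. A barcode was kept if it had 200 or more genes and no more than 10% mitochondrial UMIs (2215 of 2237). Scrublet (scanpy 1.11.5) marked 7 cells (0.316%), too few to be accepted, so the 40 highest-scoring cells (1.81%) were removed as likely doublets. Clustering used 2000 variable genes, 30 principal components, 15 neighbours and Leiden resolution 1 (leidenalg 0.10.2).

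A cluster was named when at least 3 markers of a type had a UMI in 25% of its cells and were 2-fold higher than in the other clusters (for macrophage markers, the clusters with C1q under the limit), after adding 10 CPM. A cluster of low depth, or with a minority of its type's markers, was left unnamed where none of these was among its leading genes. Cluster 6 was left unnamed for its low depth. Restricting the macrophage name to clusters whose median C1q reached 2000 CPM, and joining the dendritic and the T and NK lists, was done after seeing the data. The members and lists were chosen with earlier results of these data known. Levels are UMIs summed over cells and scaled to CPM. Intervals (95%) are exact Poisson for levels, Clopper-Pearson for shares and conditional binomial for ratios. Of these, only the ratio intervals were tested on simulated data, with sums that held counting error alone. A gene was counted as higher or lower at 1.5-fold, with at least 20 UMIs in the 2 sums together. Named list genes had 100 UMIs and at most 4 were named per list and direction, and 5 genes most like each member were named if Pearson's r reached 0.2. Free RNA was not subtracted.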

Additional observations from a re-analysis of the deposited data

How the results depend on the processing

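No paired analysis was possible because the mRNA and antibody libraries are 2 readings of the same cells and no condition was replicated. In these values the cause of a change was not tested. The ratio of macrophages to other immune cells for Cxcl1, Cxcl2 and Cxcl3 together was 26.6. It was 18.7 with a C1q limit of 4000 CPM, 20.9 with no doublet removal, 30.8 as a mean over cells, 43.5 without monocyte-like cells and 32.5 without the other immune cell richest in them. The ratio of Cxcl9 and Cxcl10 together was 1.97, and under the same settings it was 1.59 (limit of 4000 CPM), 2.35 (mean over cells), 1.85 (without monocyte-like cells), 2.41 (without the richest cell), and 4.24 without dendritic cell-like cells. Cxcl9 alone turned from 0.189 to at least 18.3 without dendritic cell-like cells.

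Between the CD9 ends the ELR ratio of 0.467 was 0.443 and 0.499 with limits of 1000 and 4000 CPM, 0.477 with no doublet removal, 0.510 as a mean over cells, 0.582 by raw CD9 counts, 0.500 by CD9 per RNA UMI, 0.415 for the highest against the lowest decile, 0.475 without the richest cell, 0.601 with CD9 ranked within clusters and 0.436 without cluster 0. Its direction held in all 12 alternatives. That of Cxcl9 and Cxcl10 together did not. From 0.958 it was 0.997 with a limit of 1000 CPM and also 0.997 with at least 1000 genes per cell, 0.913 as a mean over cells, 0.932 without the richest cell and 0.993 in macrophage clusters only, and it turned to 1.02 by raw CD9 counts, 1.07 for the highest against the lowest decile, 1.12 within clusters and 1.21 without cluster 0. Cxcl10 alone turned from 0.940 to 1.06, 1.10 and 1.2008 under the last 3. The co-detection ratio of 1.10 ranged from 1.02 (thinned to 5000 UMIs) to 1.13 (unthinned) over 5 alternatives. The settings within clusters, without cluster 0, in macrophage clusters only and without the richest other immune cell were chosen after seeing the data.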
